A study of Mus musculus with 27 samples.

Results

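The nuclear-encoded subunits of the mitochondrial respiratory chain and of ATP synthase were followed in lung macrophages during and after an LPS injury. The members were the protein-coding genes of the count table whose symbols carry the family names of the subunits (Nduf with A, B, C, S or V and a digit, Sdha to Sdhd, Uqcr, Cox4 to Cox8, Atp5), pseudogenes left out, with at least 1 CPM (count scaled to a library of fixed size) in at least 3 libraries. Of 84 genes with such names, 79 passed, out of 38124 genes in the table: 36 of complex I, 4 of complex II, 8 of complex III, 14 of complex IV and 17 of complex V. All 79 were also kept by the filter of the test. Complexes were assigned by symbol, which places Ndufa4 in complex I. The tissue forms Cox4i2, Cox8b, Cox7b2, Cox8c and Ndufa4l2 did not reach 1 CPM in any library, with 22, 3, 0, 0 and 2 counts in all 27 libraries. Just inside the rule, Cox6a2 reached 1 CPM in 11 libraries, all of them recruited, and Atp5g2 in 14.

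The cells were resident alveolar macrophages (CD11c positive, CD11b negative) and recruited macrophages (CD11c negative, CD11b positive), sorted from lung lavage of C57B/6 mice aged 8 to 14 weeks. Resident cells were taken without treatment (day 0) or 3, 6, 9 or 12 days after LPS was put into the trachea, and recruited cells at the 4 later times. The labels give the LPS as 20 ng in 50 µL (the unit of mass is theirs and was not verified), and name no mutation or transgene in any group. Each of the 9 groups had n = 3 libraries of polyadenylated RNA from a sorted population in bulk, so a change within cells cannot be told apart from a change in the mix of cells. The labels do not say that libraries of a group came from separate animals, and if they did not, the p-values measure only the spread between these samples.

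Electrons from NADH enter the chain at complex I and those from succinate at complex II, pass through complex III to complex IV, where oxygen is reduced, and the proton gradient built on the way drives ATP synthase, complex V. Most subunits are encoded in the nucleus and imported, while a few are made inside the mitochondrion. Alveolar macrophages of the resting lung are known to rely on oxidative metabolism, and macrophages exposed to LPS are known to shift toward glycolysis. Several subunits of complex IV have alternative forms from separate genes, some of them best known from muscle or testis.

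Libraries held 11093216 to 18299674 counts (median 14859352). Reads outside genes were 6.77% to 7.06% of the reads in 4 libraries that carry numbers 12 to 18 in the deposited table of unassigned reads (resident day 9 replicate 2, resident day 12 replicate 1, recruited day 9 replicate 2, recruited day 12 replicate 1), 26.5% in recruited day 6 replicate 2, and at least 8.08% in the others. Resident identity genes (12 listed, among them Siglecf and Marco, none without counts) summed to between 16580 and 33654 CPM in resident libraries and to between 2633 and 10790 CPM in recruited ones. On day 3, when many members rose, 6 of the 11 neutrophil markers tested were also called higher in resident cells: the 14 listed genes summed to 117 to 140 CPM in untreated resident cells, to 856 to 1876 CPM in resident cells and to 1497 to 2637 CPM in recruited cells. Most of this was Lcn2 (582 to 1645 CPM in resident and 970.0 to 1546 CPM in recruited cells on day 3), which macrophages also make after LPS. S100a9 was at 43.4 to 52.4 and 39.0 to 137 CPM in the same order. Retnlg went from 0 to 0.128 CPM in untreated cells to 1.72 to 3.17 CPM in resident and 1.55 to 6.51 CPM in recruited cells, and Ngp was at 0 to 0.0766, 0.0656 to 0.888 and 0 to 1.24 CPM. Ly6g, Elane and Mpo were at or under 0.314 CPM in each of these libraries. Classical monocyte and recruited macrophage markers (11 listed and tested) summed to 1616 to 2448 CPM in untreated resident cells, 3990.1 to 4921 CPM on resident day 3 and 14052 to 19857 CPM on recruited day 3. Of these, 6 were called higher on resident day 3 than on day 0, at a median of 3.62 log2. T and NK cell markers (13 listed) summed to 34.7 to 151 CPM in recruited and 0.613 to 18.6 CPM in resident libraries. The part of these other cells in the results was not tested.

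Levels between genes can be compared per length, as TPM (the share of a transcript after dividing counts by length). Averaged over the 27 libraries, Cox8a, a small subunit of complex IV, was highest at 758 TPM, followed by Atp5a1, the alpha subunit of the catalytic head of ATP synthase, at 618 TPM, Cox6b1 at 600 TPM, Cox4i1, the ubiquitous form of the largest nuclear-encoded subunit of complex IV, at 560 TPM, Atp5b, the catalytic beta subunit, at 554 TPM, and Cox6a1 at 548 TPM. The ranges over libraries of these 6 genes overlapped, so their order is not firm. The lowest were Atp5g2 at 1.87, Atp5l at 2.98, Ndufb4 at 3.34 and Atp5s at 4.496 TPM. Of the 50-base windows of Atp5l, 68.5% are present in other annotated genes, and of Ndufb4 37.0%. Reads without a unique match were among those not assigned to a gene, at 17.4% to 22.8% of aligned reads per library. Low values of these genes are therefore uncertain and may be too low. No 50-base copy in another gene was found for 42 of the 79 members.

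Promoter sequence was not used to choose the members. RefSeq promoter windows (GRCm38.p6, 250 bases before to 50 after the start) were matched for 64 members, with 69 windows. They were searched on both strands for the letters CGCANGCGC (nuclear respiratory factor, NRF1), CCGGAAG (the ETS family, which includes GABP), AAGATGGCG (YY1) and TCAAGGTCA (ERRalpha), factors known to bind promoters of this family. The NRF1 letters were in 34.8% of member windows, against 6.31% of all 32851 windows and 12.9% of the 12617 windows of genes tested here. The shares were 23.2%, 8.86% and 17.5% for the ETS letters, 10.1%, 1.4% and 2.98% for YY1, and 2.9%, 0.423% and 0.285% for ERRalpha. At least 1 of the 4 was found in 39 member windows (56.5%), 15.3% of all windows and 29.6% of those of tested genes. The shares differed by complex: the NRF1 letters were in 10 of 34 windows of complex I (29.4%), 2 of 3 of complex II, 3 of 5 of complex III, 8 of 16 of complex V (50.0%) and 1 of 11 of complex IV (9.09%). In complex IV 3 of 11 windows (27.3%) held any of the 4, and the YY1 and ERRalpha letters were in none. A match is a description of the letters and not of a bound site. The 250 bases before the start are shown for the pair of members that stood out by population (Ndufa4 and Cox6b2), for the ubiquitous forms Cox6b1 and Cox6a1, and for Sdhd and Atp5g3, whose windows hold motif letters. Capitals mark motif letters on either strand.
Ndufa4: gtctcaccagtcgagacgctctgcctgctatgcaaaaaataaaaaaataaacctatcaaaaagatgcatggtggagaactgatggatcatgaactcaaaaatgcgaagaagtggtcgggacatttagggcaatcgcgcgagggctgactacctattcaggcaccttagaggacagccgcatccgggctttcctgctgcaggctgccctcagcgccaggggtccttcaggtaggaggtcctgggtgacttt
Cox6b2: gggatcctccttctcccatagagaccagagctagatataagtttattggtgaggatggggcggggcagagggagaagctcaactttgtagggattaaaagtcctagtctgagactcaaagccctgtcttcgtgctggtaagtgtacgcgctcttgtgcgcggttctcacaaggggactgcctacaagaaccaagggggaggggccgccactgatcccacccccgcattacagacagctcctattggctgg
Cox6b1: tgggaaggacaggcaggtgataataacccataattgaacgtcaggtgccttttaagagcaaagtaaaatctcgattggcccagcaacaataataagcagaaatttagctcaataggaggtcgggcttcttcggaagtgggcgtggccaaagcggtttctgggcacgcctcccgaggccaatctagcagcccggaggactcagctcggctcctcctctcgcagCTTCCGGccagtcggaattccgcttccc
Cox6a1: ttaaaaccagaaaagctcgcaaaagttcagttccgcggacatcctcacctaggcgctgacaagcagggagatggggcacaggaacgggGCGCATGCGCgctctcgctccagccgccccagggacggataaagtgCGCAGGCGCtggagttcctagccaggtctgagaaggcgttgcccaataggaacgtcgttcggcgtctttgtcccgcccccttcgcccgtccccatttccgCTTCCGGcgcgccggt
Atp5g3: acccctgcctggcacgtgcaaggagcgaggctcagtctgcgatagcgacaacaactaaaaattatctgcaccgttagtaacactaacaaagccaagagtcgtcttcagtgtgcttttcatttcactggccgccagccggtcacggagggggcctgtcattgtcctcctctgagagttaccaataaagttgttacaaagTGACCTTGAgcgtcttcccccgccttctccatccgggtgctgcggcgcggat
Sdhd: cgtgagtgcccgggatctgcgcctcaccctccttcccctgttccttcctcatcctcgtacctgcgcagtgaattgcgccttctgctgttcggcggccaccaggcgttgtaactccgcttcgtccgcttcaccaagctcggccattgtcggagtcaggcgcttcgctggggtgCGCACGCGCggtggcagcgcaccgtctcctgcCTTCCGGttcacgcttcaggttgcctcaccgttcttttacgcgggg
The genes lie on the minus strand, and the windows are chr6:11907451-11907700, chr7:4753095-4753344, chr7:30626115-30626364, chr5:115348959-115349208, chr2:73911327-73911576 and chr9:50603850-50604099, in the order of the lines. In Cox6a1, 3 NRF1 matches (a pair of them overlapping on opposite strands) and 1 ETS match were found before the start, in Cox6b1 1 ETS match, in Sdhd 1 NRF1 and 1 ETS match, and in Atp5g3 1 ERRalpha match. The windows of Ndufa4 and Cox6b2 held none of the 4 letter patterns, which says nothing about the factors.

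**Figure D1:**
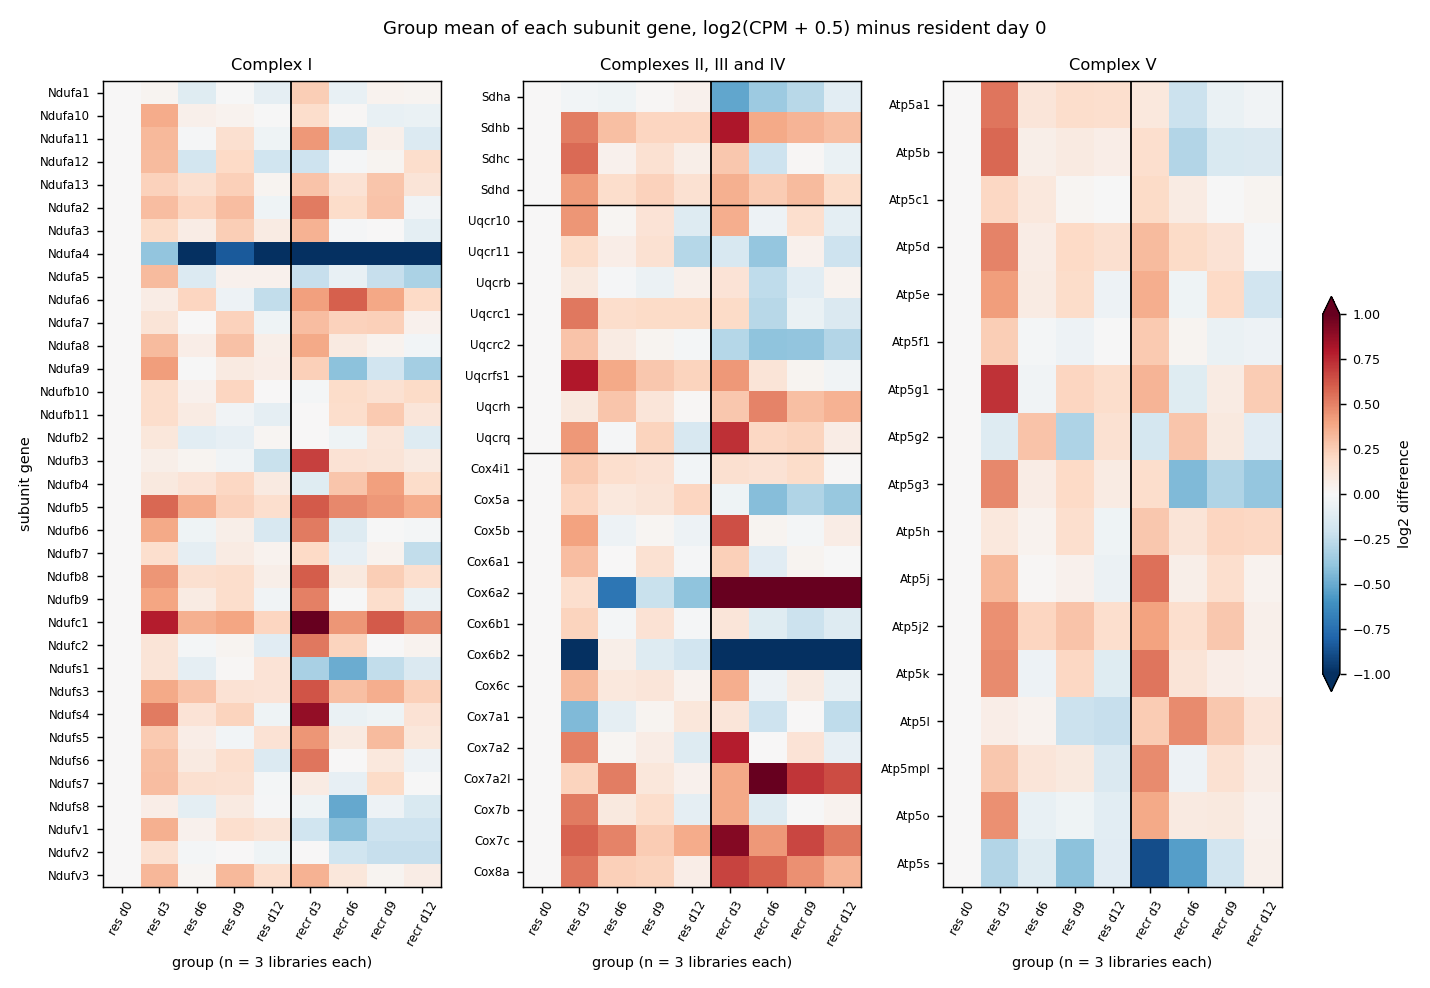
Heat map of 78 of the 79 subunit genes (rows, by complex) over the 9 groups (columns, n = 3 libraries each); colour is the group mean as log2(CPM + 0.5) minus that of resident day 0, with the scale ending at 1 in either direction. The resident and recruited day 3 columns are mostly red, and 3 rows, Ndufa4, Cox6b2 and Cox6a2, separate recruited from resident cells. Cox6a2 met the level rule through recruited libraries alone.

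CPM values below are scaled by TMM factors (trimmed mean of M values, which adjust library size for composition). The first comparison asked how recruited differed from resident macrophages over days 3, 6, 9 and 12. The median difference of the members was -0.01 log2, against 0.02 for all tested genes, and 58 of 79 differed by less than 0.25 log2. The share of all genes within that bound was not computed. By the quasi-likelihood test of edgeR (the test behind each p here, adjusted by Benjamini-Hochberg over all genes), 13 members were higher and 20 lower in recruited cells. Of all 13599 genes tested, 60.3% were called, 30.3% higher and 30.0% lower. The share of members called was 41.8%. A difference beyond 1 log2 was found in 3 members and in 2774 genes (20.4%). Of these members, Cox6a2 met the level rule through recruited libraries alone. By complex, the counts higher and lower were 6 and 9 of 36 in complex I, 1 and 2 of 4 in complex II, 2 and 3 of 8 in complex III, 3 and 3 of 14 in complex IV, and 1 and 3 of 17 in complex V.

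The core subunits of complex I, which hold its flavin, iron-sulfur clusters and ubiquinone site, were mostly lower in recruited cells: of 7, 5 were lower and 1, Ndufs3, higher (0.15 log2, with copies of 35.8% of its windows in other genes). Ndufv1, which binds NADH and flavin, had 78.4 to 106 CPM in the 12 resident libraries from days 3 to 12 and 52.9 to 81.4 CPM in the 12 recruited ones, and the populations did not overlap on any of the 4 days. The difference was -0.43 ± 0.06 log2 (SE, adjusted p = 1.72e-06). Ndufs1, the largest iron-sulfur subunit, differed by -0.35 ± 0.05 (adjusted p = 3.05e-06), also without overlap on the 4 days. Among the 28 accessory subunits other than Ndufa4, 5 were higher and 3 lower. Of all genes, 30.3% were called higher and 30.0% lower.

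In complex II, the flavoprotein Sdha and the iron-sulfur subunit Sdhb went in opposite directions on average over days. Sdha was at 298, 308 and 309.8 CPM in resident and 226, 200.3 and 223 CPM in recruited cells on day 3. On day 12 it was at 314, 313 and 330.2 against 278, 299 and 286 CPM. The Sdha difference averaged -0.31 ± 0.05 log2 over days (adjusted p = 2.36e-06). On day 12 alone, 0 of the 4 members of complex II were called between populations, with log2 differences from -0.15 to 0.09. Recruited Sdha rose with time, by 0.41 ± 0.09 log2 from day 3 to day 12 (adjusted p = 0.000908). Sdhb was at 127, 114 and 129 CPM in resident and 154, 136 and 166 CPM in recruited cells on day 3, with a mean difference over days of 0.15 ± 0.06 log2 (adjusted p = 0.0301). That call was lost with only the groups compared (adjusted p = 0.0592), and without replicate 2 of resident days 3, 6 or 12, resident day 9 replicate 1, replicate 3 of recruited days 3, 6 or 12, or recruited day 9 replicate 2 (adjusted p up to 0.0645). The membrane anchor Sdhc differed by -0.20 log2 (adjusted p = 0.00966), and Sdhd, the other anchor, differed by 0.03 log2 (adjusted p = 0.662, not called).

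In complex III, 3 of the 8 members were called lower in recruited cells, as were 30.0% of all genes. Uqcrc1 and Uqcrc2, which form its matrix face, differed by -0.35 ± 0.06 and -0.44 ± 0.06 log2 (adjusted p = 1.19e-05 and 5.56e-07), and the Rieske iron-sulfur protein Uqcrfs1 by -0.28 ± 0.07 (adjusted p = 0.00224). The small subunits Uqcrh and Uqcrq differed by 0.23 and 0.19 log2 (adjusted p = 0.00103 and 0.0403). In complex V, the alpha and beta subunits Atp5a1 and Atp5b differed by -0.30 and -0.30 log2 (adjusted p = 4.93e-05 and 1.42e-05). Atp5g3, 1 of 3 genes for the c subunit of the rotor ring, differed by -0.45 ± 0.07 (adjusted p = 6e-06). On day 3 it was at 193, 189 and 213 CPM in resident and 157, 137 and 188 CPM in recruited cells, and the populations were apart on each of the 4 days.

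Complex IV held both the members that differed most and members that hardly differed. Cox4i1 was at 210.1 to 302 CPM in resident and 209.7 to 304 CPM in recruited libraries from days 3 to 12, a difference of -0.01 log2 (adjusted p = 0.858) whose sign changed between settings. Cox5a, a subunit on the matrix side, differed by -0.45 ± 0.06 log2 (adjusted p = 1.41e-06), without overlap on the 4 days. Cox8a was higher by 0.25 ± 0.05 (adjusted p = 0.000325). Cox7a2l, a relative of the Cox7a subunits, was higher by 0.47 ± 0.08 (adjusted p = 2.17e-05, with copies of 17.7% of its windows in another gene). It was at 125, 104 and 124 CPM in recruited and 115, 105 and 97.8 CPM in resident cells on day 3, and at 119.6, 157 and 152 against 89.7, 91.1 and 98.5 CPM on day 12 (0.62 log2).

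**Figure D2:**
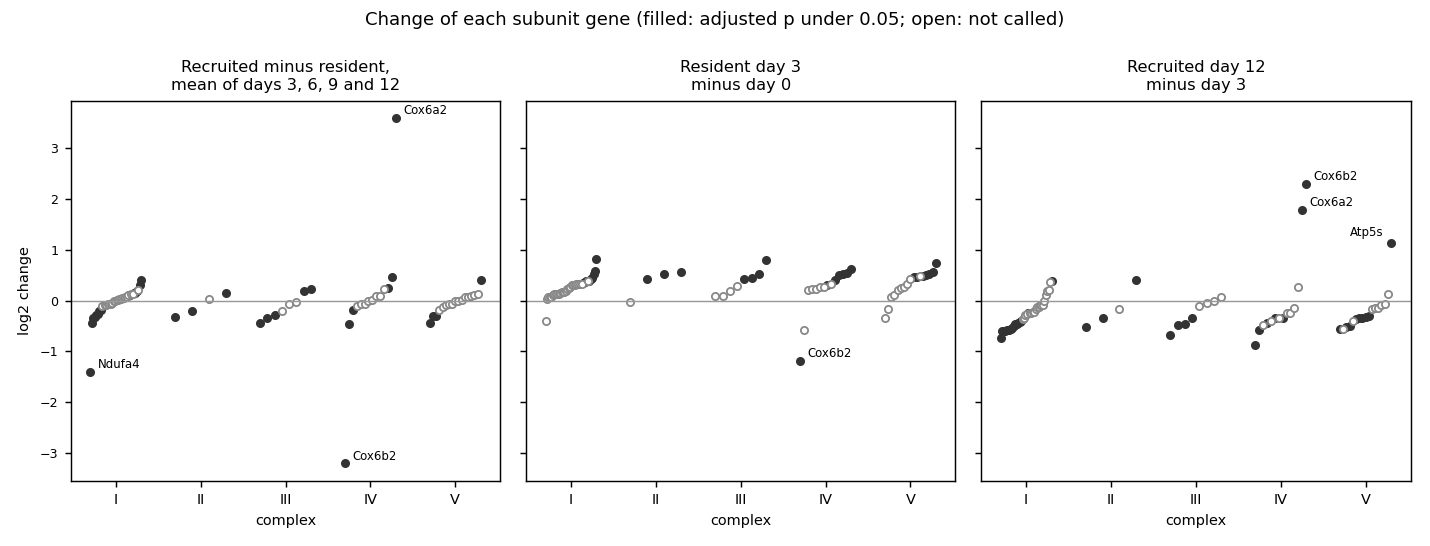
Log2 change of each of the 79 subunit genes (points, ordered by size within each complex) for 3 comparisons; filled points have adjusted p under 0.05 and open points do not, and genes beyond 1 log2 are named. Population differences scatter around 0 apart from Ndufa4, Cox6b2 and Cox6a2, whereas most points lie above 0 on resident day 3 and below 0 for recruited day 12 against day 3.

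Ndufa4 (ENSMUSG00000029632, chromosome 6, 11900292 to 11907497, minus strand), named as a complex I gene but now assigned to complex IV, fell in resident cells after LPS and was lower still in recruited cells. The counts, sums and promoter shares given here for complex I include it. Resident libraries had 95.8, 62.6 and 72.6 CPM on day 0, 63.3, 52.4 and 59.5 on day 3, 35.9, 32.2 and 41.9 on day 6, 42.7, 51.99 and 33.4 on day 9, and 43.3, 33.8 and 34.4 on day 12. Recruited libraries had 20.2, 16.7 and 24.02 CPM on day 3, 11.1, 11.5 and 15.4 on day 6, 12.8, 23.5 and 15.6 on day 9, and 19.03, 14.999 and 13.6 on day 12. The highest recruited library (24.02 CPM) was below the lowest resident library (32.2 CPM). The population difference averaged -1.4 ± 0.11 log2 (SE, adjusted p = 1.11e-10). It was -1.53 on day 6 and -1.23 on day 12, and a change over days was not called (adjusted p = 0.872).

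Against untreated cells, resident Ndufa4 differed by -0.40 log2 on day 3 (not called), by -1.07 ± 0.21 on day 6 (adjusted p = 0.00287), by -0.85 ± 0.21 on day 9 (adjusted p = 0.0224) and by -1.05 ± 0.21 on day 12 (adjusted p = 0.0089). These comparisons share the day 0 libraries. Ndufa4 was the single member called on days 9 and 12, when 3.49% and 1.3% of all genes were called, and day 12 libraries did not overlap those of day 0. The day 12 call was lost without day 0 replicate 1, the highest library (adjusted p = 0.0723), or without day 12 replicate 3 (0.0567). The day 9 call was lost with only the groups compared (0.104) and without day 0 replicate 1 (0.154) or day 9 replicates 1 or 3 (0.0698 and 0.134). Classical monocyte and recruited macrophage markers were higher in the same resident libraries: 7, 3 and 3 of 11 were called on days 6, 9 and 12, and their sum was 9273 to 9513 CPM on day 6, against 1616 to 2448 CPM on day 0 and 35659 to 41593 CPM in recruited cells on day 6. Their part in the fall of Ndufa4 was not tested. On day 6, Ndufb5, an accessory subunit of complex I, was also called (0.37 log2, adjusted p = 0.0484), in a comparison with 6.42% of genes called. Leaving out any 1 library of these groups ended that call (adjusted p 0.0601 to 0.246) and left 1 member.

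AA467197 (ENSMUSG00000033213, chromosome 2, 122636986 to 122641191, plus strand), outside the subunit family by symbol, is the mouse counterpart of human C15orf48 and was looked at after its values were seen. Its product is a paralog of Ndufa4 that is known to take its place in complex IV in inflamed cells, and the hairpin of the microRNA Mir147 lies in the gene (122640803 to 122640881). It was at 1.22, 0.995 and 0.629 CPM in untreated resident cells, 113, 60.9 and 120.5 on day 3, 47.98, 18.3 and 32.9 on day 6, 15.7, 26.8 and 17.1 on day 9, and 20.0, 15.002 and 11.7 on day 12. Recruited cells had 618, 624 and 480.3 CPM on day 3, 95.8, 72.3 and 73.8 on day 6, 57.1, 54.6 and 53.04 on day 9, and 39.0, 50.3 and 42.8 on day 12. It was opposite to Ndufa4 between the populations (1.70 ± 0.15 log2, adjusted p = 1.56e-09) and from day 0 to day 12 of resident cells (4.03 ± 0.40, adjusted p = 5.05e-06). From day 3 to day 6 of resident cells both were called lower, AA467197 at -1.57 ± 0.29 log2 (adjusted p = 0.00053) and Ndufa4 at -0.67 ± 0.21 (adjusted p = 0.0216). That Ndufa4 call was lost without day 3 replicates 1 or 3 (0.071 and 0.0669) or day 6 replicates 1 or 2 (0.0631 and 0.101). In recruited cells AA467197 changed by -3.70 ± 0.31 log2 from day 3 to day 12 (adjusted p = 8.15e-09). Ndufa4 changed by -0.68 on day 6 (adjusted p = 0.0209), a call lost without recruited day 3 replicate 3 or day 6 replicates 1 or 2 (0.107, 0.113 and 0.0957), and differed by -0.36 on day 12, not called.

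**Figure D3:**
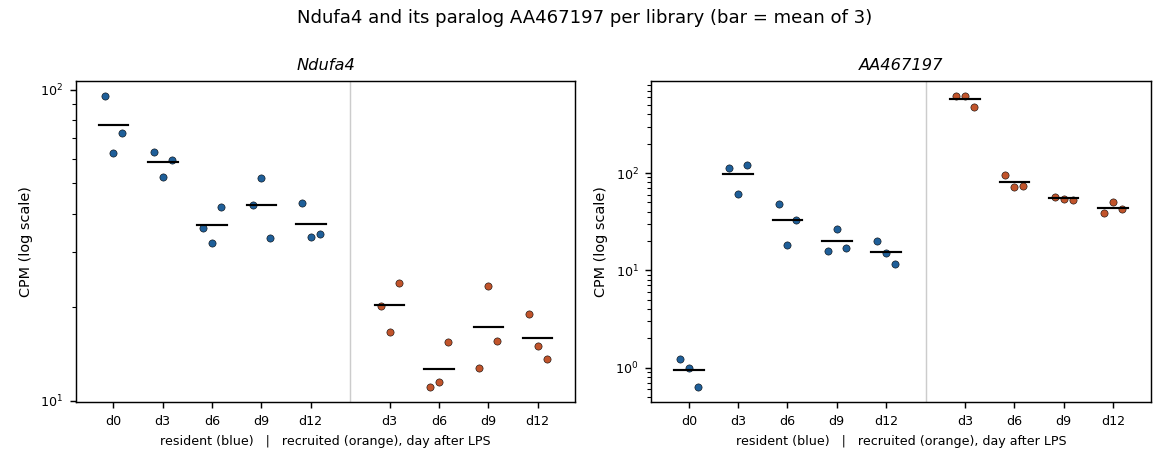
CPM (log axis) of Ndufa4 and its paralog AA467197 in each of the 27 libraries by population and day; points are libraries and bars the means of 3. Ndufa4 steps down from day 0 to day 6 in resident cells and is lowest in recruited cells, while AA467197 is near 1 CPM in untreated cells and highest on day 3 in recruited cells.

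The other members beyond 1 log2 were alternative forms of complex IV subunits. Cox6b2 (ENSMUSG00000051811, chromosome 7, 4751792 to 4753094, minus strand), best known from testis, was at 22.5, 27.3 and 32.6 CPM in untreated resident cells, 14.6, 11.7 and 10.1 on day 3, 32.6, 26.5 and 27.1 on day 6, 32.9, 16.2 and 26.2 on day 9, and 22.7, 23.9 and 25.4 on day 12. Recruited cells had 1.35, 1.26 and 0.509 CPM on day 3, 2.64, 1.02 and 1.31 on day 6, 3.18, 2.55 and 3.82 on day 9, and 3.32, 6.56 and 5.43 on day 12. It was lower in recruited cells on each day, with a mean difference of -3.20 ± 0.16 log2 (adjusted p = 6.93e-14). Resident Cox6b2 fell on day 3 (-1.18 ± 0.27, adjusted p = 0.00281), the only member called lower, and rose again from day 3 to day 6 (1.24 ± 0.27, adjusted p = 0.00181). In recruited cells it rose from day 3 to day 12 by 2.30 ± 0.36 log2 (adjusted p = 2.37e-05). Resident identity genes rose over the same days in recruited cells, from 2980 to 3965 CPM in sum on day 3 to 3820 to 10790 CPM on day 12 (7 of 12 called higher). The part of resident cells in the sort in the rise of Cox6b2 was not tested.

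Cox6a2 (ENSMUSG00000030785, chromosome 7, 128205435 to 128206387, minus strand), the heart and muscle form of the Cox6a subunit, went the other way at low levels. It stayed at or under 0.834 CPM in each of the 15 resident libraries. Recruited cells had 2.50, 1.73 and 0.728 CPM on day 3, 2.56, 5.20 and 1.25 on day 6, 8.81, 2.55 and 5.91 on day 9, and 3.23, 7.12 and 6.77 on day 12. Only recruited libraries brought Cox6a2 past the level rule of 1 CPM in at least 3 libraries. That rule thus favoured a higher level in recruited cells, and the p-value is not independent support for it. The average difference was 3.602 ± 0.35 log2 (adjusted p = 6e-09), and on day 3, when 1 recruited library lay below a resident one, it was 1.4 and not called. The single-day differences depend on a few resident counts: on day 6 the value of 4.64 became 5.34 without resident replicate 1 and 4.01 without recruited replicate 2, and on day 12 the value of 4.44 became 5.21 without resident replicate 2. Cox6a2 lies within the span of Itgad, on the opposite strand, and since no source used here gives the strand setting of the counting, reads of the pair may be mixed. Itgad was at 22.9 to 28.9 CPM in untreated resident cells and 0.449 to 2.68 CPM in recruited cells on day 12, the reverse of the order of Cox6a2. The ubiquitous forms were higher and overlapped between populations: Cox6a1 was at 104 to 141 CPM in resident and 93.0 to 137 CPM in recruited libraries from days 3 to 12 (-0.07 log2, not called, and -0.10 with adjusted p = 0.0375 when same-numbered libraries of a day were paired), and Cox6b1 at 113 to 161 and 104 to 153 CPM (-0.17 log2, adjusted p = 0.0209). Cox7a1, another muscle form, was at 0.917 to 2.45 CPM in resident and 0.650 to 3.57 CPM in recruited libraries and was not called (0.02 log2, of either sign between settings).

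**Figure D4:**
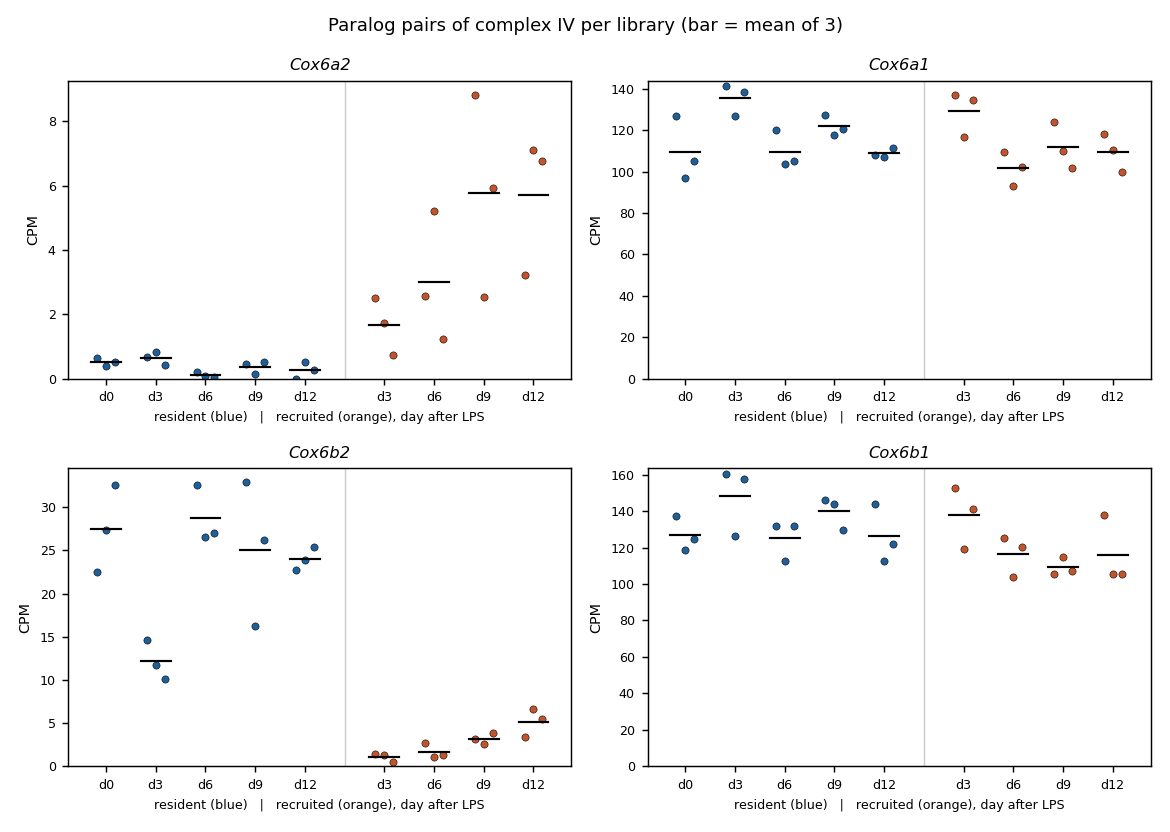
CPM (linear axes from 0) of the complex IV paralog pairs Cox6a2 and Cox6a1 (upper row) and Cox6b2 and Cox6b1 (lower row) in each library; points are libraries and bars the means of 3. Cox6b2 is 10.1 CPM or more in each resident library and 6.56 CPM or less in each recruited one, Cox6a2 is above 0.834 CPM in 11 of the 12 recruited libraries and in no resident one, and the ubiquitous forms overlap.

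In resident cells, LPS was followed by a rise of the family on day 3. Against untreated cells, 30 members rose, and Cox6b2 fell, at a median of 0.31 log2, against 0.00 for all tested genes. Of all genes 23.8% were called on that day, 13.3% higher and 10.5% lower. The rise ran through the complexes: 10 of 36 members of complex I, 3 of 4 of complex II, 4 of 8 of complex III, 6 of 14 of complex IV and 7 of 17 of complex V. The count of 31 called fell to 16 without resident day 3 replicate 3 and to 18 and 19 without day 0 replicates 3 and 2, while the median stayed between 0.27 and 0.38 log2 without any 1 library. Scaled to library size alone it was 19 higher and 1 lower, at a median of 0.24 log2.

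Uqcrfs1, the Rieske protein, rose from 67.3, 66.1 and 62.0 CPM on day 0 to 110.1, 111 and 120.5 CPM on day 3, by 0.81 ± 0.15 log2 (adjusted p = 0.000371). Ndufc1, an accessory subunit of complex I, rose from 14.1, 9.50 and 10.1 to 22.2, 16.5 and 20.5 CPM (0.82 ± 0.21, adjusted p = 0.00722). Atp5g1, another c subunit gene, rose from 16.1, 15.6 and 17.2 to 25.8, 24.6 and 31.2 CPM (0.74 ± 0.15, adjusted p = 0.00116). These groups did not overlap. Cox7c rose by 0.63 (adjusted p = 0.0229), a call that was lost with library size alone (adjusted p = 0.0733) and without day 0 replicates 2 or 3 or day 3 replicate 3 (adjusted p up to 0.0989), and 27.9% of its windows have copies in other genes. The abundant Atp5b rose from 663, 677 and 679 to 978, 994 and 1033 CPM (0.57 ± 0.10, adjusted p = 0.000228). Atp5a1 rose by 0.53 (adjusted p = 0.00123), Uqcrc1 by 0.53 (adjusted p = 0.00157), Sdhc by 0.57 (adjusted p = 0.0027) and Sdhb by 0.52 (adjusted p = 0.00236). Sdha differed by -0.02 log2 on the same day (298 to 309.8 CPM against 295 to 329 CPM) and was not called, unlike its partners, though the contrast between them was not tested.

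Short transcripts in general had a higher median on day 3, and most members are short. Of the tested genes with an annotated transcript of at most 1500 bases, 11.9% rose and 3.69% fell, with a median of 0.14 log2. Of all tested genes, 13.3% rose and 10.5% fell. The Spearman correlation of change with length was -0.15 over all tested genes and 0.21 over members. The 52 short members had a median of 0.31 log2 with 34.6% called higher, and the 27 longer members a median of 0.34 log2, against -0.02 log2 for the longer genes tested. The part of transcript length in the rise was not tested.

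Many of the members that rose had fallen again by day 6. From day 3 to day 6, 23 members of resident cells fell and 1, Cox6b2, rose, at a median of -0.23 log2, in a comparison with 24.5% of genes called, and 20 members both rose on day 3 and fell on day 6. These comparisons share the day 3 libraries, so a high or low day 3 library moves both. Atp5g1 changed by -0.77 ± 0.15 log2 (adjusted p = 0.0008), to 15.8, 15.2 and 16.8 CPM. Atp5o, a stalk subunit of ATP synthase, changed by -0.54 (adjusted p = 0.00114) and Sdhc by -0.53 (adjusted p = 0.00488). The count of 24 called was 7 without resident day 6 replicate 2, 9 without day 3 replicate 3 and 12 without day 3 replicate 1. On day 12, 73 of 79 members were within 0.25 log2 of untreated cells. Only 1.3% of all genes were called on that day, and the share of all genes within 0.25 log2 was not computed.

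Summed over subunits, complex V had 2165 ± 32.4 CPM on day 0 (SD, n = 3), 3009 ± 131 on day 3 and 2276 ± 135 on day 6, and complex III had 541 ± 28.2, 722 ± 32.5 and 602 ± 43.4 CPM. The ranges of days 0 and 3 did not overlap for either complex. Per length and without TMM scaling, the day 3 sum of complex V was 3590.1 ± 112 TPM against 2909.8 ± 28.4 on day 0, still apart, whereas complex I had 4161 ± 261 against 3937 ± 217 TPM with overlapping ranges. The size of the difference depended on the scale: it was 0.25 log2 by CPM and 0.08 log2 by TPM for complex I, and 0.42 and 0.23 log2 for complex III.

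**Figure D5:**
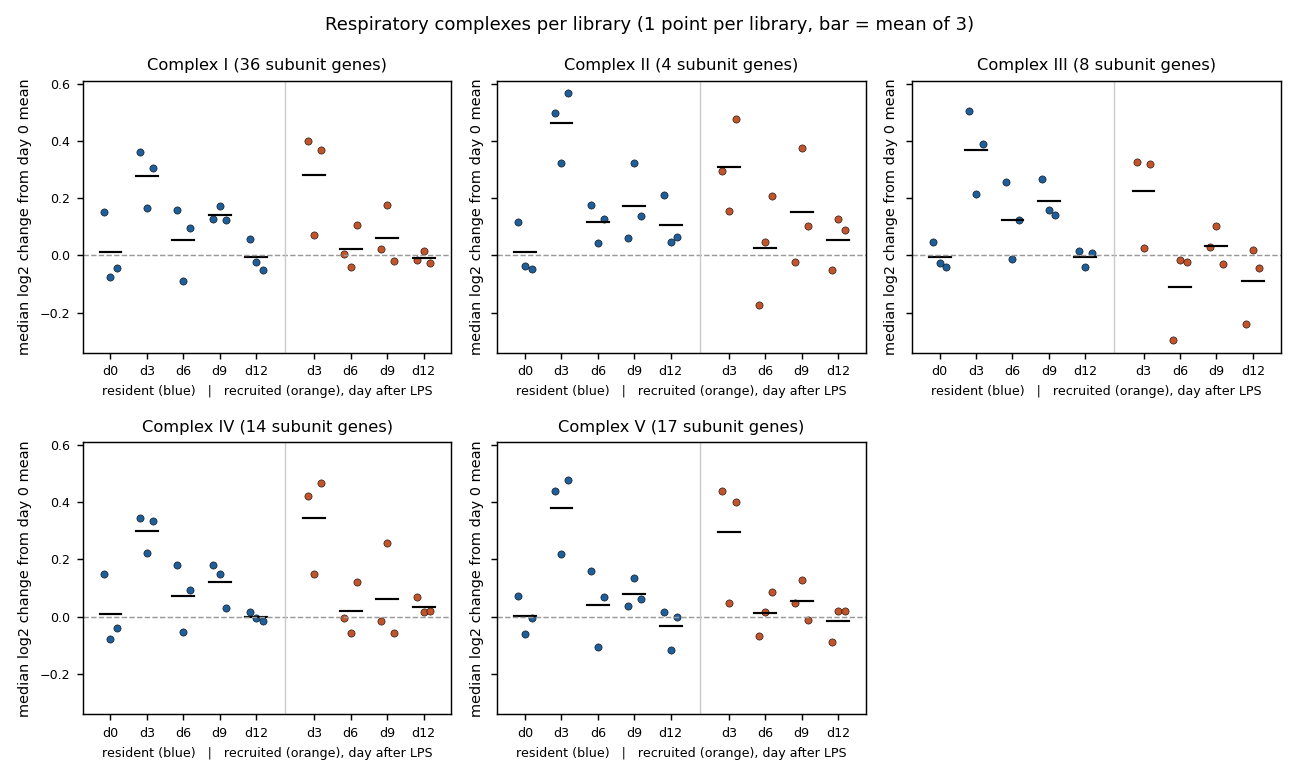
Median over the subunits of each complex of the log2 change from the day 0 mean (y axis, log2(CPM + 0.5)), per library (points) with the mean of 3 (bars), by population and day (x axis). Both populations are highest on day 3 in each complex; replicate 2 of day 3 is the lowest of its group in both populations, at 0.17 log2 in resident and 0.07 log2 in recruited cells for complex I.

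Recruited cells had no untreated group, and their later days were compared with day 3. From day 3 to day 6, 1 member, Cox7a2l, rose and 33 fell, at a median of -0.31 log2, where 31.9% of all genes were called, 15.1% higher and 16.8% lower. On day 9, 5 rose and 22 fell (36.3% of genes called), and on day 12, 5 rose and 35 fell (39.3% of genes called, 19.8% higher and 19.5% lower), again at a median of -0.31 log2. These comparisons share the day 3 libraries, and 15 members were lower in each of them. On day 12, the members called lower were 16 of 36 in complex I, 2 of 4 in complex II, 4 of 8 in complex III, 5 of 14 in complex IV and 8 of 17 in complex V. Neutrophil markers fell over the same days, with 7, 7 and 10 of 11 called lower on days 6, 9 and 12 (median -3.40 log2 on day 12), and their sum went from 1497 to 2637 CPM on day 3 to 299.2 to 415 CPM on day 12. Of the erythroid markers, 4 of 4 tested were called higher on day 9 (median 5.45 log2), where their sum was 0.0995 to 194 CPM over the 3 libraries. The part of either list in the fall of the members was not tested. Among short genes at large 20.7% fell by day 12, and among short members 44.2%.

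The counts leaned on single libraries and on scaling. The 34 members called on day 6 became 18 without recruited day 6 replicate 2 and 19 without day 6 replicate 1 or day 3 replicate 3. The 27 called on day 9 became 12 without day 3 replicate 3, 13 and 14 without day 9 replicates 3 and 1, and 16 without day 3 replicate 1. The 40 called on day 12 became 21 without day 3 replicate 3 and 26 without day 12 replicate 1. With library size alone as scaling, which changed the median of all genes from 0.03 to 0.15 log2 on day 9 and from 0.02 to 0.11 log2 on day 12, the counts were 6 higher and 7 lower on day 9 and 5 higher and 17 lower on day 12. The median of members stayed between -0.37 and -0.24 log2 on day 12 without any 1 library.

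Ndufs4, an accessory subunit needed for the stability of complex I, was at 45.6, 40.4 and 48.9 CPM in recruited cells on day 3, 19.4, 23.2 and 26.9 on day 6, 21.2, 25.3 and 23.8 on day 9, and 22.5, 29.4 and 28.6 on day 12. Each later day lay below day 3, with changes of -0.96 ± 0.14 log2 on day 6 (adjusted p = 1.16e-05) and -0.74 ± 0.14 on day 12 (adjusted p = 0.000125). Cox7a2, the ubiquitous Cox7a form, fell from 113, 84.0 and 93.7 CPM on day 3 to 46.6, 56.1 and 55.4 CPM on day 12 (-0.88 ± 0.13, adjusted p = 8.36e-06), while Cox5b, a zinc-binding subunit of complex IV, changed by -0.66 ± 0.14 by day 9 (adjusted p = 0.000545) and Ndufa11 of complex I by -0.71 ± 0.12 by day 6 (adjusted p = 6.6e-05). By day 12, Uqcrq and Ndufb3 changed by -0.67 and -0.60 (adjusted p = 0.00174 and 0.000911). The members that rose by day 12 were Cox6b2, Cox6a2 (1.79, adjusted p = 0.0143, lost without recruited day 3 replicate 3 or day 12 replicate 2), Atp5s, Sdha and Ndufa12. Atp5s, a coupling factor of ATP synthase, rose from 1.76, 0.942 and 2.04 to 2.60, 3.63 and 4.21 CPM (1.14 ± 0.31, adjusted p = 0.00528).

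By day, more of the called members were lower than higher in recruited cells. On day 3, 4 were higher and 14 lower (46.6% of genes called), on day 6 3 and 13 (35.0%), on day 9 3 and 9 (32.0%), and on day 12 4 and 8 (27.3%). The shares of members called were 22.8%, 20.3%, 15.2% and 15.2% in the same order. Median differences of all members were -0.01, -0.03, -0.03 and 0.03 log2. How the called genes at large split by direction on single days was not computed. On day 3, Ndufb3 was higher in recruited cells (0.63 ± 0.13 log2, adjusted p = 0.00046), as was Ndufs4 (0.36, adjusted p = 0.0301), a call lost with library size alone (0.186), with no filter (0.0551), with only the groups compared (0.0864), and without resident day 3 replicates 1 or 2 or recruited day 3 replicates 1 or 3 (up to 0.183). With library size alone, which changed the median of all genes from 0.05 to -0.07 log2, the day 3 split was 1 higher and 21 lower. With same-numbered libraries of a day paired, the day 9 counts were 6 and 15. On day 6 the 16 calls became 10 without recruited replicate 1, and on day 12 the 12 calls became 7, 6 and 6 without resident replicates 1 and 2 and recruited replicate 1, and the split was 6 and 6 with RLE size factors.

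Recruited cells of day 12 were also set against untreated resident cells, the steady state of the lung. Here 7 members were higher and 4 lower (31.0% of genes called), at a median of 0.00 log2. Cox6a2 was higher by 3.46 ± 0.64 log2 (adjusted p = 0.000193) and Cox7a2l by 0.66 ± 0.16 (adjusted p = 0.00286). Because Cox6a2 met the level rule through recruited libraries alone, its p-value is not independent support for a higher level there. Cox6b2 and Ndufa4 were lower, at -2.41 ± 0.29 (adjusted p = 9.62e-07) and -2.28 ± 0.22 log2 (adjusted p = 4.69e-08). Cox5a and Atp5g3 were lower too, at -0.38 and -0.39 (adjusted p = 0.0244 and 0.0358), calls that were lost without recruited day 12 replicate 1 (0.149 and 0.176) or resident day 0 replicate 1 (0.131 and 0.0978), and for Atp5g3 also without day 0 replicates 2 or 3 (0.0765 and 0.055); with only the groups compared, neither was called (0.0951 and 0.0597). The count was 7 without recruited day 12 replicates 1 or 3, and 2 higher and 7 lower with library size alone.

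Whether the population difference changed over days was tested for each member. An overall change was called for 3 members, Ndufa12, Cox6b2 and Ndufb11, where 10.7% of all genes were called. From day 3 to day 6 it was called for Ndufa12 (8.43% of genes), and from day 3 to day 12 for Ndufa12, Ndufb11 and Cox6a2 (13.6% of genes). For Cox6a2, which met the level rule through recruited libraries alone, the change depends on few resident counts. Ndufa12, an accessory subunit of complex I, was at 16.9, 14.4 and 16.9 CPM in resident and 12.7, 10.9 and 9.39 CPM in recruited cells on day 3. On day 12 it was at 11.8, 11.2 and 10.2 against 18.1, 13.3 and 12.2 CPM, so the order of the populations turned over (change of 0.93 ± 0.20 log2, adjusted p = 0.00353). Of its windows, 26.2% have a copy in another gene. With same-numbered libraries of a day paired, the counts were 6 in each of these 3 tests. They ranged from 1 to 4, 0 to 3 and 1 to 6 when single libraries were left out: the overall count was 1 without recruited day 12 replicates 2 or 3, the day 6 count 0 without resident day 3 replicate 1, resident day 6 replicates 2 or 3, recruited day 3 replicate 3 or recruited day 6 replicate 1, 3 without recruited day 3 replicate 1 and 2 without recruited day 6 replicate 3, and the day 12 count 1 without replicate 2 of resident day 3 or recruited day 3, resident day 12 replicate 3, or recruited day 12 replicates 2 or 3, and 6 without recruited day 12 replicate 1. Over all 9 groups, 53 of 79 members differed in some way, and 69.9% of all genes.

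The other genes of the chain were read from lists, against 60.3% of all genes called between populations over days, 30.3% higher and 30.0% lower. Of 15 tested assembly factors of complex I, 8 were lower in recruited cells over days, among them Ndufaf1 (-0.55 log2) and Acad9 (-0.42), with a median of -0.21 log2. For complex II 1 of 4 was higher (Sdhaf1, 0.48), for complex III 2 of 6 were higher and 2 lower (Uqcc2 at 0.44 and Bcs1l at -0.51 at the ends), for complex IV 4 of 19 were higher and 1 lower (Coa7 at 0.39 and Cox18 at -0.39), and for complex V 2 of 4 were lower (Tmem70 at -0.47 and Atpaf1 at -0.30). Electron carriers, coenzyme Q synthesis and adenine nucleotide exchange genes were higher in 2 and lower in 9 of 21, with the coenzyme Q genes Coq8a at -0.87 and Coq3 at -0.56 and the hypoxia-linked Higd1a at 0.37. Regulators of mitochondrial gene expression were higher in 5 and lower in 3 of 16, with Myc at -1.19, Tfam, which packages mitochondrial DNA, at -0.41 and the mitochondrial DNA polymerase Polg at 0.34. On resident day 3, 8 of 16 genes for import, chaperones and other mitochondrial upkeep rose, at a median of 0.28 log2 and with 13.3% of all genes called higher, Timm23 by 0.76 and Tomm40 by 0.51 among them. Of the 13 subunits encoded in mitochondrial DNA, 7 were kept by the filter of the test in these polyadenylated libraries. Levels of the 13 are not given here. In recruited cells 3, 0 and 4 of the 7 were called higher than on day 3 on days 6, 9 and 12. The medians were 0.87, 0.29 and 0.97 log2, with 15.1% of all genes called higher on day 6 and 19.8% on day 12. On day 9, 0 of 7 had an unadjusted p under 0.05 in edgeR and 0 of 7 were called by DESeq2. The nuclear-encoded members had a median of -0.31 log2 on day 12. In resident cells 0 of the 7 mitochondrial subunits were called on days 3, 6, 9 or 12 against day 0. Their medians were -0.47, -0.23, -0.43 and -0.42 log2, where 23.8%, 6.42%, 3.49% and 1.3% of all genes were called. Between populations, 1 was lower in recruited cells on day 3 (median -0.53 log2, 46.6% of all genes called). On day 12, 0 were called (median 0.52 log2, 27.3% of all genes called).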

How the data were processed

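Sorted bulk macrophage populations were measured in 27 libraries, 3 in each of 9 groups. The deposited gene counts are raw whole numbers per gene; STAR 2.4.0a, HTSeq 0.6.0, DESeq2 1.4.5 and R 3.1.0 with build mm10 are named in the submitters' processing notes, and no source used here gives the strand setting of the counting. A kit made for Ion Proton libraries of polyadenylated RNA was used, per the labels' protocols. Totals were 11093216 to 18299674 counts per library, which limit the precision of genes with few counts. Symbols, positions and lengths came from GENCODE M21 (GRCm38), with a symbol for 36345 of 38124 genes.

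Counts were fitted with edgeR 4.0.16 (R 4.3.3): genes kept by filterByExpr (13599), TMM factors, 1 mean per group over all 27 libraries, quasi-likelihood tests with 18 residual degrees of freedom, and Benjamini-Hochberg adjustment over all genes tested at a threshold of 0.05. The procedure was also run on simulated counts. The simulated libraries were independent and had the same spread setting for all genes, so that run does not cover the pairing described below. TPM was computed from counts and the total exon length of each gene, with no TMM factor. Alternatives were RLE size factors, library size alone, other filters, DESeq2 1.42.0, only the groups compared, blocks, runs of library numbers, and leaving out each library. A further one, without the 4 libraries numbered 12 to 18, was chosen after seeing the data.

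Same-numbered resident and recruited libraries of a day deviated together in all 12 pairs (correlation of deviations over genes, r 0.166 to 0.518), and all 24 libraries correlated best with its own number, so the pairing is read from the counts, as the labels state none. Each of the 12 pairs also lay within the same run of library numbers, so pairing and run cannot be told apart. Over days, same-numbered libraries did not deviate together throughout (48 pairs, r -0.433 to 0.293, 14 of them over 0.1).

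Named genes were chosen by rule. For the population average, these were per complex up to 3 called members in each direction without overlap on the 4 days. For other comparisons they were up to 4 called members in each direction. Where 2 groups were compared, the libraries of these members also had to be without overlap. A set of subunits was named whatever their value. Up to 2 genes in each direction were named per list of other mitochondrial genes. The values of 1 member are not reported here by name; it is included in the counts and sums. The members and lists were chosen with earlier results of these data known.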

Additional observations from a re-analysis of the deposited data

Results flagged for a closer look

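The difference between recruited and resident cells changed over days 3, 6, 9 and 12 for Ndufa12 (edgeR quasi-likelihood test of the interaction, adjusted p = 0.0124, 0.00143 to 0.0447 over the alternatives). From day 3 to day 6 its adjusted p was 0.0259 (0.00921 to 0.0814) and from day 3 to day 12 it was 0.00353 (0.000464 to 0.0215). Ndufb11, another accessory subunit of complex I, was called over all days (adjusted p = 0.0428, 0.0061 to 0.161) and from day 3 to day 12 (adjusted p = 0.0365, 0.0126 to 0.134), when it went from 40.8, 34.9 and 41.3 CPM to 41.6, 42.8 and 42.2 CPM in recruited cells and from 43.6, 43.4 and 44.6 CPM to 35.5, 37.1 and 36.7 CPM in resident cells. For Cox6b2 the change over days had an adjusted p of 0.0245 (0.00143 to 0.0747), and for Cox6a2 the change from day 3 to day 12 had 0.0407 (0.0022 to 0.0963). Cox6a2 met the level rule through recruited libraries alone and had few resident counts, so its p-value is not independent support for a population difference. Outside the gene counts, 26.5% of reads in recruited day 6 replicate 2 lay outside genes, above the highest untreated library at 11.2%.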

How the results depend on the processing

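Most values kept their direction and their side of the threshold: of the single-gene values under alternatives 2341 did, 184 lost a call, 12 gained one and 22 changed sign. The cause of the changes was not tested, apart from settings that use fewer genes or libraries by construction. Counts of members called moved by over 1.5 times as follows. With library size alone they were 20 for resident day 3, 1 for resident day 6, and 22, 13 and 22 for recruited days 6, 9 and 12 against day 3. With no filter on low counts they were 7 for the populations on day 12, 1 for resident day 6, 14 for recruited day 9, and 0 and 1 for the change of the population difference to days 6 and 12. With only the groups compared they were 4 for the populations on day 9, 4 and 0 for resident days 6 and 9, 21, 5 and 22 for recruited days 6, 9 and 12, and 6 for recruited day 12 against untreated cells. With DESeq2 they were 2, 5 and 5 for the change of the population difference to day 6, to day 12 and over all days. With a replicate block by day and number, these were 6, 6 and 6, and the populations on day 9 gave 21. With a replicate block by number over days, resident day 6 gave 1. With runs of library numbers in the model, resident day 6 gave 7 and the 3 changes 5, 6 and 5. Without the 4 libraries numbered 12 to 18, the populations on day 12 gave 5, resident day 6 gave 4, and the changes to days 6 and 12 gave 2 and 5. When each library was left out in turn, the counts ranged from 10 to 18 and 6 to 13 for the populations on days 6 and 12, 16 to 33, 1 to 1, 0 to 1 and 0 to 1 for resident days 3, 6, 9 and 12, and 7 to 22 for resident day 6 against day 3. They ranged from 18 to 33, 12 to 33 and 21 to 46 for recruited days 6, 9 and 12, 7 to 11 for recruited day 12 against untreated cells, and 0 to 3, 1 to 6 and 1 to 4 for the change to day 6, to day 12 and over all days. The block by day and number also lost the call of Ndufb11 and gained that of Cox6a1 between populations, and that of Cox6a2 over days (adjusted p = 0.00886). The limit given above for Cox6a2 holds here too.

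The sign of a difference near 0 turned in 4 genes. Cox4i1 between populations became 0.005794 with RLE factors, 0.005848 with DESeq2, 0.02044 without the 4 libraries, and ranged from -0.04119 to 0.01539 without single libraries. Cox7a1 became -0.01673 with library size alone, -0.004346 with only the groups compared, -0.0707 with the replicate block, -0.02691 with the number run and -0.1157 without the 4 libraries, and ranged from -0.1571 to 0.1145 without single libraries. Cox6b2 on resident day 12 became 0.03184 with the number run, and Sdha on resident day 3 ranged from -0.05707 to 0.02127. Genes of few counts, such as Cox6a2, Cox7a1 and Atp5g2, are limited by depth.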
